A study of Homo sapiens with 6 samples.

Results

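Peptide transport, trimming and loading for MHC class I molecules was examined through 10 genes in HT1080 cells: the transporter genes TAP1 and TAP2, the peptide editors TAPBP and TAPBPL, the aminopeptidases ERAP1 and ERAP2, the glycoprotein chaperones CALR, CANX and PDIA3, and NLRC5, the transactivator of class I genes. They were taken by name, and each of the 10 symbols matched 1 Ensembl gene among the 62710 genes of the deposited table. HT1080 is an established human fibrosarcoma line. It was either left untreated or exposed to 20 ng/mL IFNβ for 24 h, and 3 libraries were sequenced in each group. The labels name human IFNβ for these cells, whereas the RNA sequencing methods of the study name mouse IFNβ, and its cell culture methods give human IFNβ for all lines but the mouse line 4T1. The study states in general that its in vitro results come from independent biological replicates, but the labels do not say that these libraries came from separate cultures. The p-values below measure the spread between these libraries, which may then be technical.

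Class I molecules show short peptides from inside the cell to cytotoxic T cells. Peptides made in the cytosol, largely by proteasomes, are pumped into the endoplasmic reticulum (ER) by the TAP1-TAP2 heterodimer, an ABC transporter. There, aminopeptidases trim their ends, and the peptide-loading complex, in which tapasin (TAPBP) bridges the transporter to class I heavy chains with PDIA3 and calreticulin (CALR), selects those that bind well. Interferons are known to raise several of these genes, and NLRC5 is known to act on class I promoters together with the RFX complex.

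Values are FPKM, fragments scaled to gene length and library depth, as the authors deposited them. They are whole multiples of the value of 1 fragment, which gave a depth of between 22848104 and 32915500 fragments per library. Among the 10 genes, TAPBPL had the fewest fragments, 200 to 603 per library, and CALR had 28164 to 46477. The treatment check genes IFIT1, ISG15, MX1 and OAS1, all interferon-stimulated, had log2 fold changes between 6.39 and 8.67. Of 8 mesenchymal markers, 7 reached a mean of 0.1 FPKM and none was called differentially expressed by the rule given below. With the adjusted p-value alone 2 were higher, FN1 (log2 fold change 0.51) and SPARC (0.32), and 4 were lower, with VIM at 399 ± 23.9 FPKM untreated and 325 ± 7.45 FPKM treated (S.D., n = 3 each). Among all genes tested, 15.2% were higher and 17.5% lower in this way. THY1 was under 0.03 FPKM in every library. The summed FPKM of 7 immune markers, among them PTPRC, CD3E and CD14, was 0.0282 to 0.259 in untreated and 0.0742 to 0.207 in IFNβ-treated libraries, and that of 5 epithelial markers was 0.256 to 0.445 and 0.580 to 0.654. Only CLDN4 of these 5 was tested, at 0.314 ± 0.109 and 0.575 ± 0.0584 FPKM (S.D., n = 3 each). Its log2 fold change was 0.73 (limma adjusted p = 0.047). The part of these markers in the results below was not tested. In bulk RNA, more RNA per cell and more cells with the RNA cannot be told apart.

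Promoter windows from RefSeq (GRCh38.p14, 250 bases before to 50 after a transcript start) were found for 8 of the 10 genes, in 15 windows. There was none for PDIA3 or NLRC5. They were searched on both strands for the core of the interferon-stimulated response element (ISRE), which ISGF3 and IRF factors bind and which reads GAAA, any 2 bases and GAAA, for TTCNNNGAA, a STAT site with N any base, and for the ER stress response element, which reads CCAAT, any 9 bases and CCACG. The ISRE core was present for 5 genes, TAP1, TAP2, TAPBP, ERAP1 and ERAP2, against 4.38% of the 27305 genes with a window (3.57% of 35116 windows). TTCNNNGAA, held by 9.38% of all genes (7.66% of windows), was found for TAP1 alone, in the window of its other transcript start. The ER stress element, held by 0.0916% of all genes (0.0769% of windows), was found for CALR and CANX. TAPBPL held none of these motifs in its 2 windows. The stretches below are shown because they hold the matches, with matched bases in capitals and each sequence written 5′ to 3′ along the strand of its gene. On the other strand the ISRE core reads TTTC, any 2 bases and TTTC. The ER stress element there reads CGTGG, any 9 bases and ATTGG, as in CALR. The matches in TAP1 and in TAPBP are pairs that overlap each other. The matches describe the letters in these windows and do not show that a factor was bound.
TAP1 (chr6:32853778-32853892, minus strand): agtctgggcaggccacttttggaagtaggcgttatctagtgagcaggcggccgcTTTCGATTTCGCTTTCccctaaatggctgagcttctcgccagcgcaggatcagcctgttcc
TAP2 (chr6:32838743-32838857, minus strand): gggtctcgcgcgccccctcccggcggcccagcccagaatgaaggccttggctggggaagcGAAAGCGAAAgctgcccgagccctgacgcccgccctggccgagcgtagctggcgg
TAPBP (chr6:33314079-33314193, minus strand): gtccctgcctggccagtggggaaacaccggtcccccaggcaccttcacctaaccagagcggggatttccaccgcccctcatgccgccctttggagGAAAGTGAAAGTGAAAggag
ERAP1 (chr5:96807931-96808045, minus strand): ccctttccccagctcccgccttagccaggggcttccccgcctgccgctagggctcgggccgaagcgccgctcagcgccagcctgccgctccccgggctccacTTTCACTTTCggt
ERAP2 (chr5:96876385-96876499, plus strand): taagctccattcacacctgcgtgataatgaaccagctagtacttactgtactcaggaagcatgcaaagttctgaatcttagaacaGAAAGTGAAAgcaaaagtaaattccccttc
CALR (chr19:12938359-12938447, plus strand): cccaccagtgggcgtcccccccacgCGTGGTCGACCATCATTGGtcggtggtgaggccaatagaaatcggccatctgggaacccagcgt
CANX (chr5:179698727-179698841, plus strand): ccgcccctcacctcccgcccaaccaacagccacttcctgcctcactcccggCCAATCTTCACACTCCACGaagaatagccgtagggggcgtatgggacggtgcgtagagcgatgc

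The ISRE core of ERAP1 ran from base 3 to base 12 of the transcript, and the pair of TAPBP ended 5 bases before the start. With bases before a start counted as negative, the overlapping pair of TAP1 ran from -134 to -119, and the match of TAP2 from -58 to -49. ERAP2 held its match from -30 to -21 at one of its 2 RefSeq starts and none at the other. TAP1 and ERAP1 likewise had 2 RefSeq starts, with the ISRE core at only one of them.

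The treated and untreated groups were set against each other in limma on log2(FPKM + 0.1) over the 20716 genes with a mean of at least 0.1 FPKM, a filter that all 10 genes passed. A gene was called differentially expressed (DEG) when its p-value, adjusted by Benjamini-Hochberg over all genes tested, was under 0.05 and its log2 fold change was 1 or more in either direction. Of the 10 genes, 6 were DEGs and all 6 were higher after IFNβ: TAP1, NLRC5, TAP2, TAPBP, TAPBPL and ERAP1. Of all genes tested, 4.22% were DEGs, 3.49% higher and 0.739% lower. With the adjusted p-value alone, ERAP2, CALR and PDIA3 were also higher, which made 9 of 10, against 15.2% of all genes in that direction and 32.7% in either. CANX did not pass. The groups did not overlap for any of the 10 genes, of which 9 were higher. Groups stood apart for 46.6% of all genes tested, 22.3% higher and 24.3% lower. The median log2 fold change of the 10 genes was 1.03, and that of all genes tested was 0.00020.

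**Figure D1:**
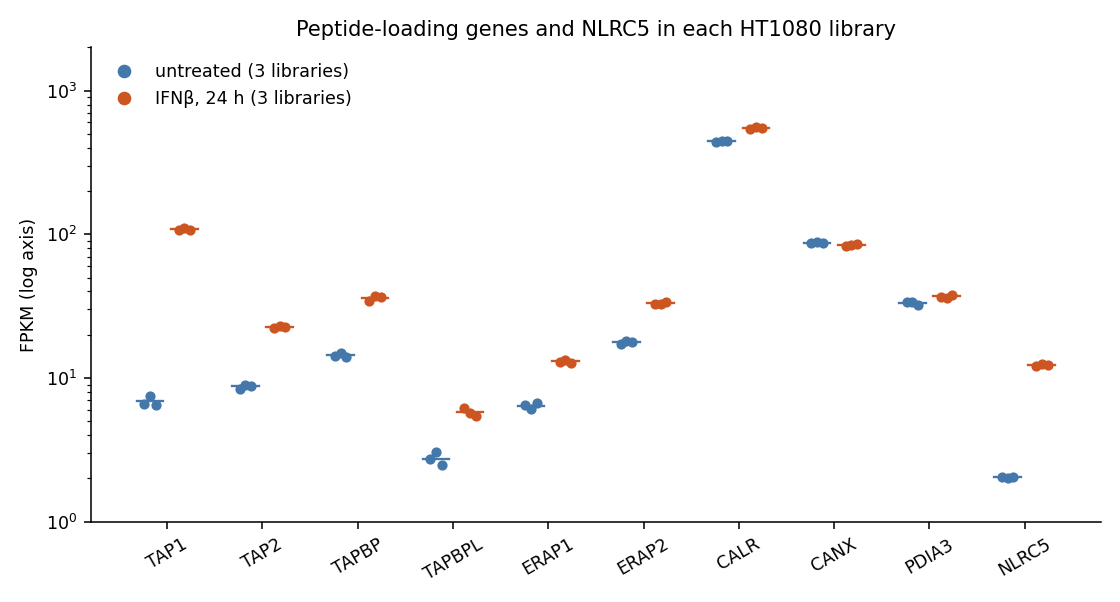
FPKM (log axis) of each gene in the 3 untreated and 3 IFNβ-treated libraries, with points for libraries and a short line for the mean of each group. TAP1 moves from 6.52 to 7.55 FPKM in untreated libraries to 106 to 111 FPKM after IFNβ, while the points of CANX stay between 82.8 and 87.9 FPKM.

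The transporter genes both rose, TAP1 far more than TAP2. TAP1 (ENSG00000168394, chromosome 6 from 32845209 to 32853978 in GENCODE release 29, GRCh38), which encodes the pump subunit that docks tapasin together with its partner, was at 6.56, 7.55 and 6.52 FPKM in the untreated libraries and at 106, 111 and 107 FPKM in the IFNβ-treated ones. Every treated library thus lay more than 10 times above every untreated one. The mean of 6.88 ± 0.582 FPKM became 108 ± 2.63 FPKM (S.D., n = 3 each), which is 15.7 times higher, a change on the log2 scale of 3.96 (standard error, SE, 0.06, adjusted p = 1.1e-07 by limma). By log2 fold change TAP1 ranked 62 among all genes tested.

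TAP2 (ENSG00000204267, chromosome 6 from 32821833 to 32838780), the other subunit of the pump, was at 8.42, 8.97 and 8.78 FPKM without and 22.2, 22.8 and 22.5 FPKM with IFNβ. The libraries of each group lay close together and far from the other group. Its mean rose 2.58 times, with a log2 fold change of 1.36 (SE 0.03, adjusted p = 6.8e-07 by limma). About 32.3% of the TAP2 exon length in release 29 is shared with AL669918.1 on the same strand, which was at 0.024 FPKM or less on average in either group. PSMB8-AS1, on the other strand, overlaps 9.5% of the exon length of TAP1 and was at 0.136 and 1.39 FPKM. Whether the authors' counting used strand is not given in the sources used here.

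Because the 2 subunits act as a pair, their FPKM ratio was taken within each library. TAP1 over TAP2 was 0.779, 0.841 and 0.743 in untreated cells and 4.78, 4.86 and 4.74 after IFNβ. The difference of the mean log2 ratios was 2.61, in an exact two-sided permutation test with p = 0.10, the smallest that 3 libraries against 3 allow. TAP1 therefore lay below TAP2 in every untreated library and above it in every treated one. The level of such a ratio depends on the gene lengths used. From the fragments, the deposited FPKM used 10357 bp for TAP2 and 4738 bp for TAP1, whereas the exons of release 29 add up to 6390 and 4805 bp. With these, the ratio was 0.452 to 0.512 in untreated and 2.88 to 2.96 in treated libraries, and the crossing remained.

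**Figure D2:**
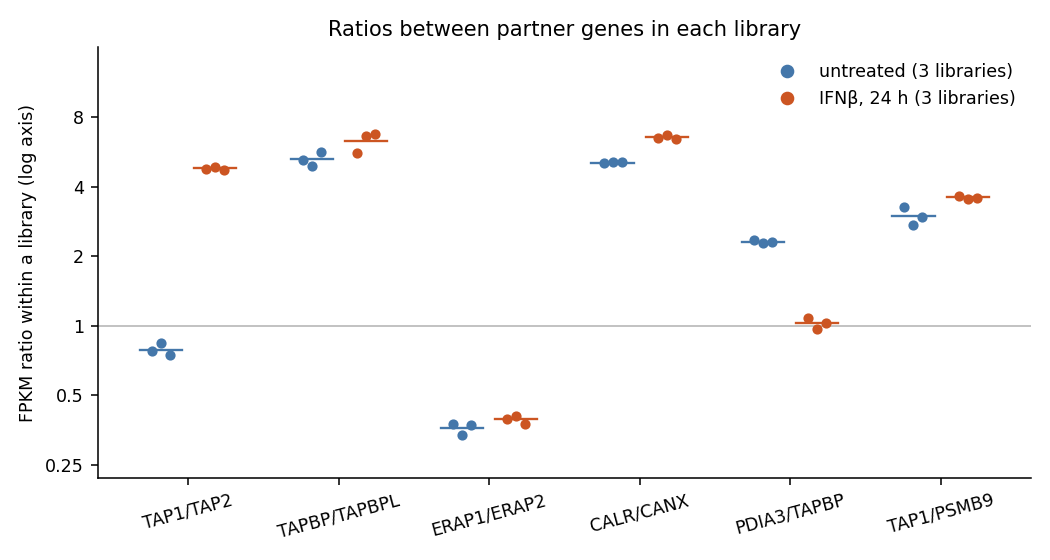
FPKM ratio of partner genes within each library (log axis), untreated and IFNβ-treated, with points for libraries and a short line for the group mean. TAP1 over TAP2 crosses from 0.743 to 0.841 up to 4.74 to 4.86, PDIA3 over TAPBP falls from above 2 to about 1, and ERAP1 over ERAP2 stays between 0.337 and 0.408.

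Both editors rose, and tapasin had the higher FPKM in every library. TAPBP (ENSG00000231925, chromosome 6 from 33299694 to 33314387), which holds class I molecules at the transporter and favours tightly bound peptides, was at 14.3, 14.8 and 13.96 FPKM in untreated and 34.2, 37.5 and 36.8 FPKM in treated libraries. The lowest treated library was above all untreated ones. Its mean rose 2.52 times, with a log2 fold change of 1.32 (SE 0.04, adjusted p = 3.5e-06 by limma).

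TAPBPL (ENSG00000139192, chromosome 12 from 6451690 to 6466517), which encodes TAPBPR, a tapasin relative that edits peptides outside the loading complex, was at 2.75, 3.03 and 2.47 FPKM without and 6.14, 5.67 and 5.44 FPKM with IFNβ. It had the widest relative spread of the 10 genes, although its groups stayed apart. Its log2 fold change was 1.04 (SE 0.08, adjusted p = 2.4e-04 by limma) with a 95% confidence interval from 0.84 to 1.25. It fell under the fold threshold without untreated replicate 3 (0.97), without IFNβ replicate 1 (0.99) and with a pseudocount of 1 (0.85), with adjusted p-values between 2.3e-04 and 0.0017. VAMP1 on the other strand overlaps 10.6% of its exon length and was at 1.35 ± 0.285 and 2.00 ± 0.186 FPKM (S.D., n = 3 each). TAPBP over TAPBPL was 4.89 to 5.66 in untreated and 5.57 to 6.78 in treated libraries, and these ranges overlapped (difference of mean log2 ratios 0.26, exact permutation p = 0.20, two-sided). With 0.1 added to each FPKM the difference was 0.28 (exact permutation p = 0.10).

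The ER aminopeptidases, zinc enzymes that shorten peptides from the amino end, sit side by side on chromosome 5 and rose 2.03 and 1.87 times. ERAP1 (ENSG00000164307, from 96760810 to 96808100) was at 6.52, 6.05 and 6.67 FPKM in untreated and 13.0, 13.4 and 12.7 FPKM in treated libraries. ERAP2 (ENSG00000164308, from 96875939 to 96919716) was at 17.3, 17.99 and 17.9 FPKM without and 33.0, 32.9 and 33.7 FPKM with IFNβ. In both genes the treated libraries were all well above the untreated ones, and ERAP2 was the higher of the pair in each library.

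The log2 fold change of ERAP1 was 1.01 (SE 0.04, adjusted p = 1.7e-05 by limma) and that of ERAP2 was 0.90 (SE 0.02, adjusted p = 1.4e-06 by limma). ERAP1 therefore counted as a DEG and ERAP2 did not, although the fold threshold of 1 falls between values that are close. ERAP1 in turn fell under the threshold without untreated replicate 2 (0.97), without IFNβ replicate 2 (0.99), with quantile normalization (0.99) and with a pseudocount of 1 (0.92), with adjusted p-values of at most 2.8e-04. ERAP1 over ERAP2 was 0.376, 0.336 and 0.373 in untreated and 0.394, 0.408 and 0.377 in treated libraries, so the treated range began just above the untreated one (difference of mean log2 ratios 0.12, exact permutation p = 0.10, two-sided). With 0.1 added to each FPKM the difference was 0.11 (exact permutation p = 0.20), and without untreated replicate 2 it was 0.07.

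The chaperones of general glycoprotein folding changed least. CALR (ENSG00000179218, chromosome 19 from 12938578 to 12944489), a soluble lectin of the ER that joins the loading complex, was at 440, 447 and 445 FPKM in untreated and 539, 558 and 553 FPKM in treated libraries. The treated libraries were all higher, by a ratio of means of 1.24 and a log2 fold change of 0.31 (SE 0.02, adjusted p = 9.3e-05 by limma). PDIA3 (ENSG00000167004, chromosome 15 from 43746392 to 43773279), the oxidoreductase ERp57 that pairs with tapasin through a disulfide bond, was at 33.6, 33.8 and 32.1 FPKM without and 36.9, 36.2 and 37.9 FPKM with IFNβ. It rose by a log2 fold change of 0.16 (SE 0.03, adjusted p = 0.0073 by limma).

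CANX (ENSG00000127022, chromosome 5 from 179678628 to 179730925), the membrane-bound relative of calreticulin that holds free class I heavy chains early in folding, had 87.0, 87.9 and 87.5 FPKM in untreated and 82.8, 83.8 and 85.7 FPKM in treated libraries. These were the only groups among the 10 genes in which the treated libraries were the lower. Its log2 fold change of -0.06 (95% confidence interval -0.10 to -0.01) had a limma adjusted p of 0.058, and the adjusted p ran from 0.0011 to 0.46 over 16 other settings, 3 of which gave a value under 0.05. CALR over CANX was 5.05 to 5.09 in untreated and 6.45 to 6.65 in treated libraries. PDIA3 over its partner TAPBP was 2.28 to 2.35 in untreated and 0.965 to 1.08 in treated libraries, a difference of -1.17 in mean log2 ratio. Each of these 2 differences had an exact two-sided permutation p of 0.10 without overlap between groups. Over the 6 pairs tested, the Benjamini-Hochberg adjusted p was 0.12 for the 5 pairs at 0.10.

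NLRC5 (ENSG00000140853, chromosome 16 from 56989485 to 57083531), a NOD-like receptor family member that enters the nucleus and switches on class I genes, TAP1 and B2M among its known targets, had the second largest change. It was at 2.03, 2.01 and 2.05 FPKM in untreated libraries and 12.1, 12.5 and 12.3 FPKM after IFNβ, with very little spread in either group. Its mean rose 6.06 times, with a log2 fold change of 2.54 (SE 0.03, adjusted p = 5.5e-08 by limma), and it ranked 159 among all genes tested. CIITA, the related transactivator of class II genes, was at 0.142 ± 0.0153 and 0.230 ± 0.0353 FPKM (S.D., n = 3 each) and did not pass (log2 fold change 0.44, limma adjusted p = 0.18).

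**Figure D3:**
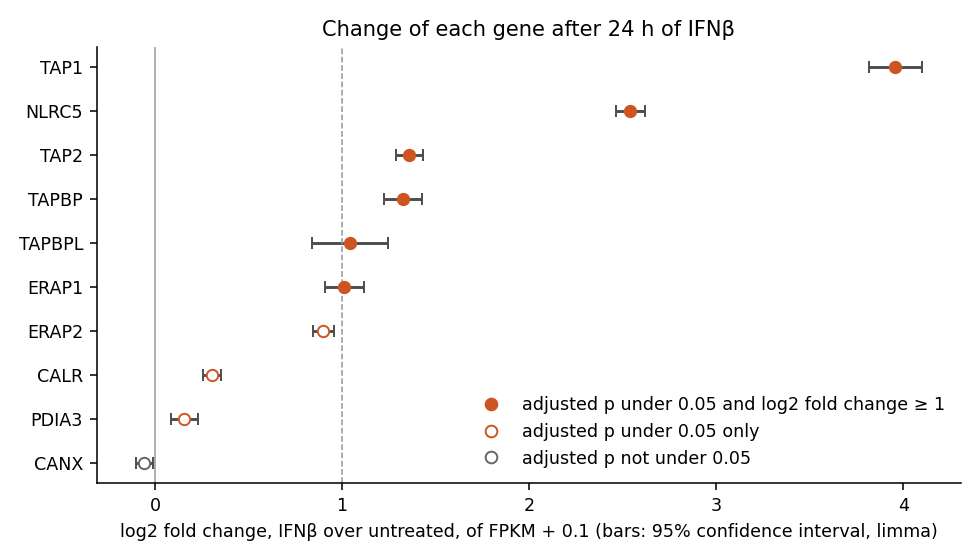
Log2 fold change of FPKM + 0.1 for each gene, IFNβ-treated over untreated, with bars for the 95% confidence interval from limma and a dashed line at the fold threshold of 1. TAP1 (3.96) and NLRC5 (2.54) stand apart, TAPBPL, ERAP1 and ERAP2 lie between 0.90 and 1.04 beside the threshold, and CALR, PDIA3 and CANX lie between -0.06 and 0.31.

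The order of the levels changed with treatment. In untreated cells it was CALR (444 FPKM), CANX (87.5), PDIA3 (33.2), ERAP2 (17.7), TAPBP (14.4), TAP2 (8.72), TAP1 (6.88), ERAP1 (6.42), TAPBPL (2.75) and NLRC5 (2.03), and the ranges over libraries overlapped only between TAP1 and ERAP1. After IFNβ, TAP1 ranked 2 of 10 in place of 7, above CANX, and NLRC5 passed TAPBPL. PDIA3 and TAPBP overlapped after IFNβ (36.2 to 37.9 and 34.2 to 37.5 FPKM). Level ranks depend on gene length: with the exon lengths of release 29, tried after the data had been seen, CANX was at 193 and 186 FPKM and TAP1, at 107 FPKM after IFNβ, ranked 3. With these lengths TAPBP ranked 4 and ERAP2 5 in untreated cells, and TAP2 ranked 6 and ERAP2 7 after IFNβ. PDIA3 over TAPBP was then 2.41 to 2.48 in untreated and 1.02 to 1.14 in treated libraries. CALR over CANX was 2.36 to 2.38 in untreated and 3.02 to 3.11 in treated libraries.

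The other steps of the class I pathway were read from the same fit. Of 7 class I chain genes, HLA-G was listed at 0 in every library. Against 3.49% of all genes tested, all 6 others were higher DEGs. Their median on the log2 scale was 3.15. HLA-B, a peptide-presenting heavy chain, rose from 2.10 ± 0.0532 to 46.7 ± 2.13 FPKM, and B2M, the shared light chain, from 141 ± 2.93 to 543 ± 5.56 FPKM (S.D., n = 3 each). HLA-C (log2 fold change 3.67), HLA-E (2.64) and HLA-F (4.70) were also among them. The classical heavy chain genes, HLA-B and HLA-C included, are near-identical over long stretches and vary between genomes, so their split of fragments is uncertain.

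Of 16 genes that supply or cut peptides, 7 were higher DEGs and none a lower one, against 3.49% and 0.739% of all genes tested. The immunoproteasome subunits PSMB9 (log2 fold change 3.65), PSMB10 (2.07) and PSMB8 (2.04), the proteasome activator genes PSME2 (1.48) and PSME1 (1.30), and the aminopeptidase genes LAP3 (2.47) and LNPEP (1.003) made up the 7. The constitutive subunits differed by little, with PSMB5 at -0.09 (limma adjusted p = 0.039) and PSMB7 at 0.15 (limma adjusted p = 0.028). The median of the 16 was 0.14.

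Of 14 transcription genes of the pathway, 4 were higher DEGs, against 3.49% of all genes tested. Among them were STAT2 (log2 fold change 3.35) and IRF9 (2.79), both part of ISGF3, and IRF1 (1.21). IRF1 was not called with a pseudocount of 1, nor IRF9 under a filter of a mean of at least 1 FPKM. With the adjusted p-value alone 8 of the 14 were higher and 3 lower, against 15.2% and 17.5% of all genes tested. Partners of NLRC5 in the RFX complex rose less, RFX5 by 0.47 (limma adjusted p = 1.0e-04) and RFXANK by 0.30 (limma adjusted p = 0.0092), and RFXAP had 0.12 (limma adjusted p = 0.15). RELA, an NF-κB subunit, had a log2 fold change of 0.13 (limma adjusted p = 0.010). The 3 lower genes, named after their values were seen, were NFYA (-0.37) and NFYB (-0.21), subunits of the CCAAT-binding factor NF-Y, and NFKB1 (-0.16), another NF-κB subunit.

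Of 10 genes for glycan trimming, folding and ER export, none was a DEG, against 4.22% of all genes tested. With the adjusted p-value alone 4 were higher and 2 lower, against 15.2% and 17.5% of all genes tested. The higher genes included HSPA5 (BiP, log2 fold change 0.40). The lower ones included UGGT1, the folding sensor that returns class I molecules to calreticulin (-0.41, limma adjusted p = 7.3e-05). UGGT1 was named after its value was seen. GANAB had -0.02 and SEC61A1 had 0.05, and neither passed. Of 10 other ER chaperone genes, none was a DEG and the median was -0.0069, with PDIA6 at 0.15, PDIA4 at 0.08 and HSP90B1 at 0.02. CALR, at 0.31, lay within the range of these 20 genes, from -0.41 to 0.40. HSPA5, HSP90B1 and PDIA6 also held the ER stress element in their RefSeq windows.

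**Figure D4:**
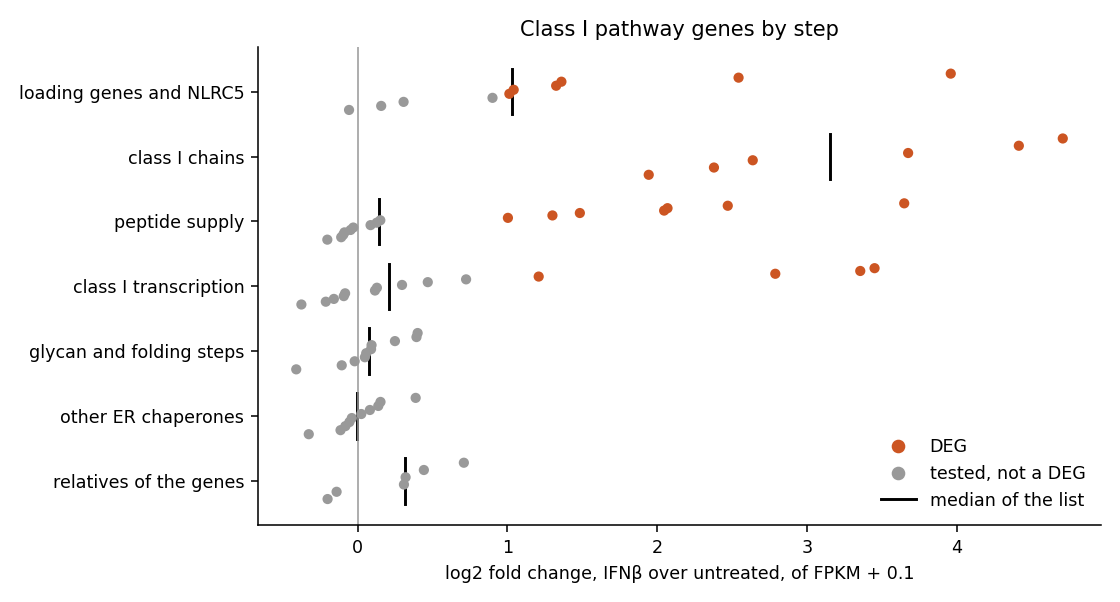
Log2 fold change of FPKM + 0.1, IFNβ-treated over untreated, for the tested genes of each step of the class I pathway, with DEGs in orange, other tested genes in grey, a black bar for the median of each list and a thin line at the median of all genes. All 6 tested class I chains are DEGs (median 3.15), 6 of the 10 loading genes are, and none of the glycan and folding genes or other ER chaperones is. Of all genes tested, 4.22% are DEGs.

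By position, the DEGs TAP1, TAP2, PSMB8 and PSMB9 lie together in the MHC region, within the stretch from 32821833 to 32859585 on chromosome 6. The genes PSMB9 and TAP1 run in opposite directions, and TAP1 over PSMB9 was 2.72 to 3.25 in untreated and 3.52 to 3.65 in treated libraries (exact permutation p = 0.10, two-sided). TAPBP, farther along the same chromosome, had 18 tested protein-coding genes within 150 kb, none of them a DEG, with log2 fold changes from -0.59 to 0.46. On chromosome 5, LNPEP (from 96935394 to 97037515), which encodes another aminopeptidase of the same family, lies next to ERAP2, and CAST, whose exons overlap 3.8% of those of ERAP1 on the other strand, had a log2 fold change of 0.18. CAST was at 19.2 and 21.7 FPKM on average without and with IFNβ, above ERAP1 in both groups. AC008906.1, also on the other strand, overlaps 3.2% of the ERAP1 exon length and was at 0.743 and 1.45 FPKM. What these overlaps add to ERAP1 was not tested. Over all 10 genes there were 66 other tested protein-coding genes within 150 kb. Of these, 5 were higher DEGs, against 3.49% of all genes tested. They were PSMB8, PSMB9, LNPEP, DNASE2 near CALR and CETP near NLRC5, the last 2 named after their values were seen. LNPEP lay at the fold threshold (log2 fold change 1.003). DNASE2, at 0.193 and 0.493 FPKM on average without and with IFNβ, and CETP, at 0.0192 and 0.284 FPKM, were low in both groups. The untreated mean of CETP was under the 0.1 FPKM filter, so CETP was tested only because of its treated values. Its place among the 5 thus partly follows from the filter.

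The genes most like 3 of the members were found by the Euclidean distance of the 6 values of log2(FPKM + 0.1), each minus the untreated mean, over 11996 genes with a mean of at least 1 FPKM. Nearest to TAP1 were DDX60 (distance 0.133) and SAMHD1 (0.140). Nearest to ERAP1 were its neighbour LNPEP (0.075), DENND3 (0.090) and SLC12A8 (0.094). Nearest to NLRC5 were IFIT5 (0.045), CASP1 (0.061) and PPM1K (0.090). With 2 groups and values centred on the untreated mean, this distance reflects only the fold change and the spread between libraries. DDX60, SLC12A8 and PPM1K had untreated means of 0.724, 0.858 and 0.850 FPKM. They passed the filter of 1 FPKM only through the treated group.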

How the data were processed

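RNA of HT1080 cells was measured in 3 untreated and 3 IFNβ-treated libraries (20 ng/mL, 24 h). The authors deposited FPKM for each Ensembl gene and library. The submitters' processing notes name fastp, HISAT2, StringTie and GRCh38 without versions. The annotation and strand setting are not given in the sources used here.

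Symbols were looked up by Ensembl ID, and 42303 IDs had one. Whole fragments were recovered from the steps of the FPKM values for 100% of the 35303 genes above 0. Libraries of a group differed by more than counting error, as chi-square over its degrees of freedom was 1.78 to 3.38. Groups were compared with limma 3.58.1 (R 4.3.3; lmFit, eBayes with trend), without covariates, and within-library ratios with exact permutation tests in scipy 1.17.1 (Python 3.11.15, pandas 2.3.3, numpy 2.4.6). The fold change on log2(FPKM + 0.1) understates the change of low genes. The members and lists were chosen with earlier results of these data known. Named genes are all members, and of each list the DEGs and up to 3 others with the highest mean FPKM, except where marked, and a few that the rule names are not reported here. Further genes are named as partners, as neighbours or for an overlap. UGGT1, CLGN, CIITA and markers such as FN1 and THY1 also fall outside the rule. Promoters are from RefSeq, GRCh38.p14. Locations are from GENCODE release 29, which lacks 4436 of the IDs.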

Additional observations from a re-analysis of the deposited data

How the results depend on the processing

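The number of DEGs among the 10 genes was 6 and lay between 4 (pseudocount 1, without TAPBPL and ERAP1) and 6 under the other pseudocounts, filters and scalings, eBayes without trend, limma-voom on recovered fragments and an adjusted p-value under 0.01, and was 9 without the fold threshold. With single libraries left out it was 5 to 6. Among 47 genes of the 4 pathway lists, 17 were DEGs, with 15 to 17 under the same settings, 16 to 17 with single libraries left out, and 36 without the fold threshold, which admits small changes by its construction. LNPEP, at 1.003, was lost under quantile normalization, with a pseudocount of 1 and without untreated replicate 1, untreated replicate 2 or IFNβ replicate 2, IRF1 with a pseudocount of 1 and IRF9 with a mean of at least 1 FPKM. No log2 fold change of the 10 genes changed sign in the 16 settings run for each. Equal totals, median ratio and quantile scaling moved the median of all genes to 0.012, 0.0034 and -0.060. The share of DEGs among all genes was 1.47% with a pseudocount of 1 (304 genes) and 3.54% with a mean of at least 1 FPKM (425 genes), against 4.22% (875 genes).

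Same-numbered libraries did not deviate together, with correlations of 0.014, 0.023 and 0.031, although each correlated best with its own number. With the replicate number as a block, 6 of the 10 genes and 17 pathway genes were again DEGs. The pair ratio differences are the same with the block by construction, and an exact paired permutation test of 3 pairs cannot give a p under 0.25.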

Other observations

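Relatives of the 10 genes that act outside class I loading were read from the same fit. None of the 6 of 11 that were tested was a DEG, against 4.22% of all genes tested. ABCB9, a lysosomal peptide transporter related to TAP1 and TAP2, had 2.06 ± 0.216 and 2.58 ± 0.0760 FPKM (S.D., n = 3 each; log2 fold change 0.32, limma adjusted p = 0.026). ANPEP, a cell-surface aminopeptidase of the ERAP family, was at 192 ± 4.23 FPKM in untreated cells, well above ERAP1 and ERAP2, and at 167 ± 4.78 FPKM after IFNβ (log2 fold change -0.20, limma adjusted p = 0.0022). CLGN, a calnexin relative known from testis, had a log2 fold change of -0.14 (limma adjusted p = 0.41). Of the NOD-like receptor relatives of NLRC5, NLRX1 had 0.31 (limma adjusted p = 0.0034) and NOD1, a sensor of bacterial cell wall fragments, had 0.71 (limma adjusted p = 0.0022), NOD1 being named after its value was seen.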
